A study of Mus musculus with 4 samples.

Results

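The genes described here encode the DNA replication machinery: the proteins that license replication origins, open and copy the double helix, join the lagging strand, supply deoxynucleotides, rebuild chromatin behind the fork and control entry into S phase. The list holds 46 genes of the 54532 gene IDs measured, chosen by name, with earlier results of these data known. Total RNA of fetal pancreas was sequenced in C57BL/6 mice labelled WT (wild type) at 4 embryonic stages, with a single sample for each of E11.5, E13.5 and E15.5 and a last one for E18.5. The design text calls the tissue pancreatic epithelium and the last stage E18. The sources used here do not say how the epithelium was separated or whether fetuses were pooled.

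Values are FPKM (fragments relative to exon length and to a total set for each library, a level already divided by gene length), averaged by the authors per stage. That total was not the sequencing depth alone, as described under the processing. The values were then scaled between stages, as also described there. The averages turned out to be those of 2 libraries of whole reads per stage, with estimated depths from 1.37e+07 to 1.8e+07 reads. Where an average could be split, the SD of its 2 libraries is given (n = 2). No label names these libraries, so p-values measure only the spread between them, which may be technical. Levels are listed from E11.5 to E18.5 in the order of the stages. The rule of size called a gene higher or lower where 2 stages differed at least 2-fold in scaled FPKM and the larger value reached 5. A gene rose or fell only where limma, a linear model fitted to log2(scaled FPKM + 1) of 13526 genes in all 8 libraries, gave a Benjamini-Hochberg adjusted p under 0.05, and differences are on that log2 scale.

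DNA replication begins in G1, when the origin recognition complex (ORC) with Cdc6 and Cdt1 loads the Mcm2 to Mcm7 ring onto DNA in an inactive form. Cyclin E with its kinase, and transcription factors of the E2F family, drive passage into S phase, where Cdc45 and the GINS complex join the ring to form the active helicase. In the fetal pancreas, dividing epithelial progenitors give rise to acinar, duct and endocrine cells, and many of their descendants leave the cell cycle as they differentiate.

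Of the 46 genes, 45 reached 1 FPKM in at least 1 stage and 44 of these entered the limma fit. Pola2 reached it but its average could not be split, so it has levels and no test. Fen1, the nuclease that trims Okazaki fragments, was listed at 0.205 ± 0.0288, 0.221 ± 0.0679, 0.117 ± 0.0610 and 0.0805 ± 0.0681 FPKM, on 1 to 11 reads per library. Of its annotated exon bases, 84.2% overlap Tmem258 or Gm10143, and the sources used here do not say how reads in shared sequence were counted. It enters no count of changes below.

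The makeup of the samples moved along with the stages. The 16 acinar genes on a marker list (pancreatic enzymes and factors) made up 0.00239%, 1.77%, 20.7% and 13.3% of all FPKM. Their summed FPKM was 7.36, 5985, 108099 and 61559.6, with 6 of the 16 at 0 at E11.5. The 14 endocrine genes summed to 604, 3774, 3196 and 35119 FPKM, with 1 of 14 at 0 at E11.5. The E11.5 sample stood apart. All 11 erythroid genes had their highest level there (summed 9680 FPKM against 187 to 341 later), as did 11 of 12 mesenchyme genes (238 against 49.5 to 85.0) and 8 of 9 neural genes (1251 against 20.0 to 51.1). Pdx1, the factor that defines pancreatic epithelium, was at 2.93 ± 0.501, 79.0 ± 1.43, 60.6 ± 4.23 and 77.4 ± 2.25 FPKM. The whole list of 11 epithelial genes differed less, with sums of 978, 2583, 3230 and 4126 FPKM. Krt18, the highest of them at E11.5, was at 332 FPKM there, and 9 of the 11 had their lowest level at that stage. The 6 leukocyte genes summed to 77.4, 19.2, 192 and 112 FPKM, but C1qa alone held 176 FPKM of the sum at E15.5. Of the 6, 3 had their lowest level at E15.5, and the list's median was 5.13, 1.24, 1.17 and 4.19 FPKM. All 5 endothelial genes stayed below 0.3 FPKM. The part of these cell types in the changes below was not tested. The limma fit and the scaling use all 4 stages, and without either E11.5 library the calls of Orc1 and Mcm10 from E13.5 to E15.5 were lost. In bulk samples, fewer dividing cells and less of a transcript per dividing cell cannot be told apart.

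The replication genes were lowest at E18.5. Their summed scaled level was 1676, 1882, 1813 and 837 FPKM. As a share of all FPKM they were 0.545%, 0.556%, 0.347% and 0.181%. At E18.5 the median gene stood at 39.5% of its own highest stage, against 91.0%, 97.8% and 73.8% at the earlier stages. E18.5 was the lowest stage for 44 of the 45 genes and the highest for 0. The exception was Pold2, lowest at E11.5. The highest stage was E11.5 for 14 genes, E13.5 for 21 and E15.5 for 10. With every stage set to the same FPKM total, an alternative called the same total below, only Pold2 of the 45 had a higher value at E15.5 than at E13.5. In that setting the median log2 difference over all genes was -0.41 in that interval.

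**Figure D1:**
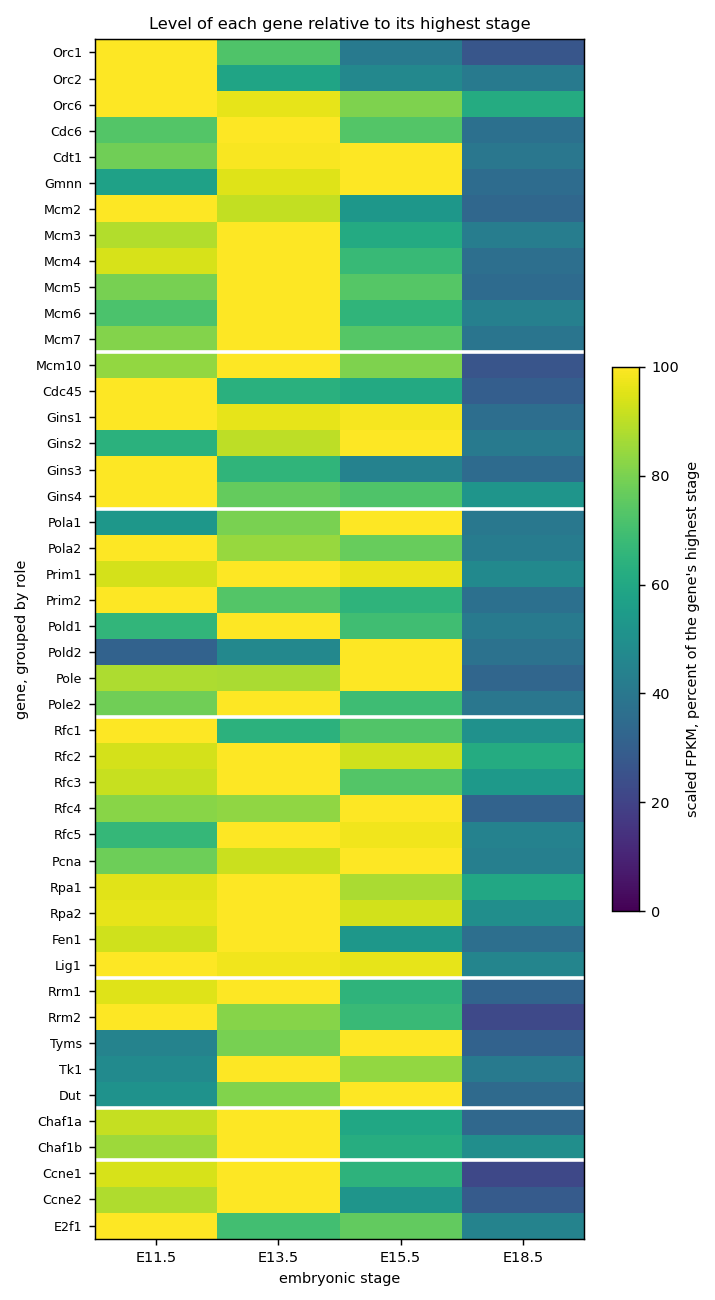
Scaled FPKM of each of the 46 replication genes at the 4 stages (columns), as a percentage of that gene's highest stage (colour), with genes in rows grouped by role and white lines between the groups. The E18.5 column is the darkest for every gene but Pold2, whose darkest cell is E11.5; Orc1, Mcm10, Rrm2 and Ccne1 end at 21.8% to 26.7% of their highest stage.

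The size of the fall in each of the 2 intervals after E13.5 depended on the scaling. The median difference was -0.19 from E13.5 to E15.5 and -0.85 from E15.5 to E18.5, beside 0.00 and 0.04 over all genes. At the same total it was -0.74 and -0.68, but there the median over all genes was -0.41 and 0.15. Relative to all genes, the members lay further below in the later interval in both settings. At the same total 16 genes were lower by size in the earlier interval and 11 in the later, counts without a share over all genes here. From E15.5 to E18.5 all 45 genes had a lower value, where 46% of all 14841 genes measured did, and 18 of the 45 were lower by size, where 6.26% of all genes were; 0 were higher, where 7.3% of all genes were. By limma, 42 of 44 fell and 0 rose, against 30.8% and 38.2% of all genes; Orc1 and Orc2 did not pass. The median of -0.85 stood beside 0.04 over all genes. Compared with E13.5, all 45 had a lower value at E18.5 (43.6% of all genes did), 29 of 45 genes were lower by size (3.58% of all genes) and 44 of 44 fell (25% of all genes), with a median of -1.11 against 0.06 for all genes. Compared with E11.5, 18 of 45 were lower by size (8.52% of all genes), 43 of 44 fell (38.5% of all genes) and 1, Pold2, rose (37.1% of all genes). The median there was -0.94 against 0.00.

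Earlier intervals were mixed. From E11.5 to E13.5 only Tk1 passed the rule of size, as higher (6.6% of all genes were higher and 6.44% lower). By limma 20 of 44 rose and 9 fell, where 31.5% of all genes rose and 37.4% fell. From E13.5 to E15.5 only Pold2 passed the rule, as higher (4.29% of all genes were higher and 2.06% lower), while 7 rose and 24 fell by limma (29.1% and 27.4% of all genes). The medians were 0.09 and -0.19, against -0.03 and 0.00 over all genes. These 2 intervals depend on the scaling. When every library was set to the same total, the calls became 14 up and 13 down for the earlier interval and 1 up and 42 down for the later one. That setting moved the median over all genes to -0.14 and -0.41, and the acinar genes alone held 20.7% of the FPKM at E15.5. From E15.5 to E18.5 the same setting left 0 up and 41 down.

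**Figure D2:**
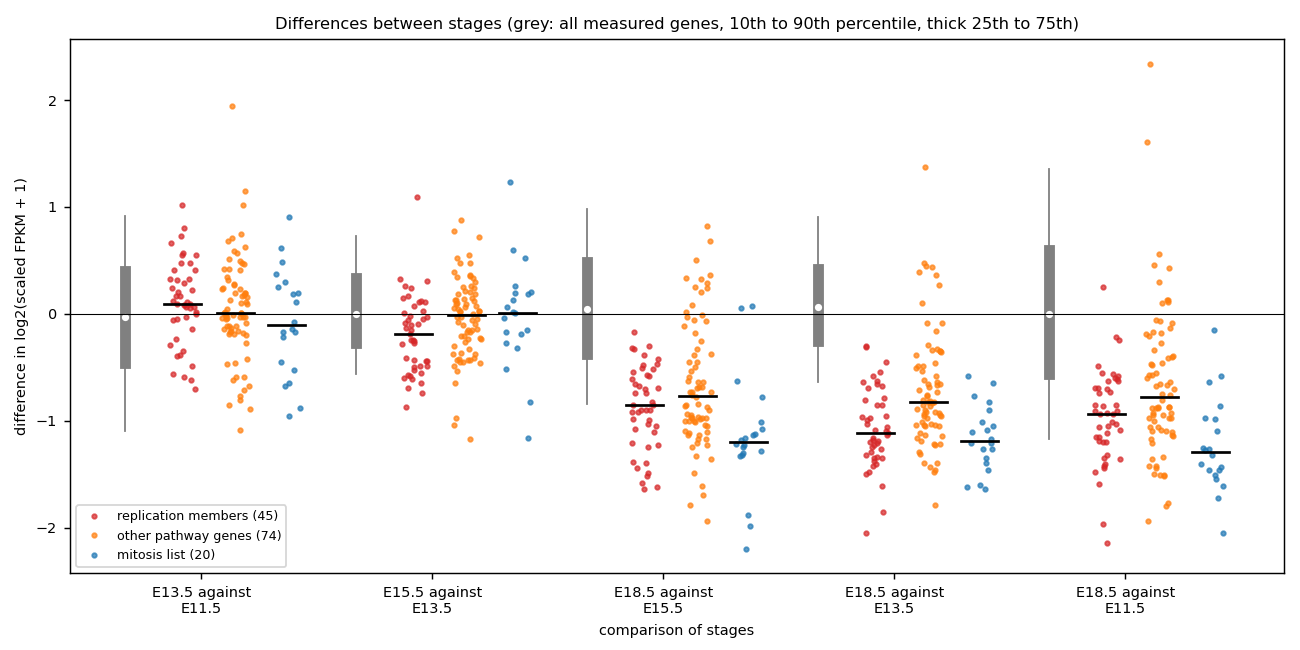
Differences in log2(scaled FPKM + 1) for 5 comparisons of stages (x axis), with 1 point per gene for the replication genes (red), the other genes of the pathway (orange) and a mitosis list (blue), black bars at the medians and grey bars for all measured genes. The red points lie on both sides of 0 in the first 2 comparisons and below 0 for all 45 genes at E18.5 against E15.5 and against E13.5.

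The 44 genes followed 11 different courses by their limma calls in the 3 intervals. The commonest, in 11 genes, was a rise, a fall and a further fall: Cdc6, Mcm3, Mcm5, Mcm6, Mcm7, Pold1, Pole2, Rfc2, Tk1, Chaf1b and Ccne2. At the same total the first rise was lost for Mcm3, Chaf1b and Ccne2 and turned for Rfc2. That of Rfc2 was also lost without any 1 of the E11.5 and E13.5 libraries, and that of Ccne2 without library 2 of E11.5 or either E13.5 library. In 8 more, among them Mcm4, Rrm1 and Ccne1, no change was called in the earliest interval and falls followed. A delayed course, with a rise in both early intervals and a fall only at the end, belonged to Gins2, Pola1, Pold2, Tyms and Dut, and of these 5 only Pold2 kept its rise from E13.5 to E15.5 when libraries were set to the same total. Mcm2, Gins3 and Rrm2 fell in all 3 intervals. The first fall of Mcm2 (-0.14, limma adjusted p = 0.0274) was lost without any 1 of the E11.5 and E13.5 libraries and without limma's trend. It was also lost without the filter on low values and without scaling beyond the deposited FPKM. The last fall of Gins3 was lost at the same total and without library 1 of E15.5 or of E18.5.

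Promoter sequence was examined because these genes fell together. RefSeq windows (GRCm38.p6, from 250 bases before to 50 after a gene's start) were found for 37 of the 46 genes, in 43 windows. The letters TTTGGCGC, TTTCCCGC, TTTCGCGC or TTTGCCGC, forms of the E2F site, were searched on both strands. They stood in 13 of the 43 windows (30.2%), 1 for each of 13 genes, and in 2.26% of all 32817 windows (2.87% of those of protein-coding genes). Of the 75 windows of other pathway genes, 21 (28%) held them. Origin licensing genes held them in 7 of the 10 genes with a window: Orc1, Cdc6, Cdt1, Mcm3, Mcm5, Mcm6 and Mcm7. The 5 nucleotide genes, the 2 chromatin assembly genes and the 2 G1/S genes with a window held 0. The stretches below are shown because they carry these letters in 8 genes of the licensing, helicase, polymerase and clamp loader groups, with capitals on the E2F-type letters, 10 to 165 bases before the RefSeq start. Mcm5 and Mcm6 hold overlapping matches on opposite strands. Rrm2, the gene with the largest fall from E11.5 to E18.5, has none of these letters in its window and is shown with its CCAAT box (letters CCAAT, either strand) in capitals.
Orc1 (chr4:108579402-108579453, + strand): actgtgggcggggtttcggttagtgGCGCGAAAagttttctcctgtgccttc
Cdc6 (chr11:98907988-98908045, + strand): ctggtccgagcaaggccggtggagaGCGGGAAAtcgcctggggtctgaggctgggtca
Mcm5 (chr8:75109331-75109392, + strand): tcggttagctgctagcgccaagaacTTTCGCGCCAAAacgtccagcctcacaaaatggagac
Mcm6 (chr1:128359720-128359840, - strand): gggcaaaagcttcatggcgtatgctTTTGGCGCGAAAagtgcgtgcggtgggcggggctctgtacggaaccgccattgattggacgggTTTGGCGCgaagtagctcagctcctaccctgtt
Mcm7 (chr5:138172016-138172073, - strand): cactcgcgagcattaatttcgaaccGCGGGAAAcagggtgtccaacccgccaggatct
Gins3 (chr8:95633493-95633550, + strand): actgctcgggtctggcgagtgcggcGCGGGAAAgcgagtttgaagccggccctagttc
Pola1 (chrX:93632261-93632318, - strand): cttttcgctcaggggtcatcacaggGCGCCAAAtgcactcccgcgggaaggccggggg
Rfc3 (chr5:151651209-151651243, - strand): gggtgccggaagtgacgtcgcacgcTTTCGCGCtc
Rrm2 (chr12:24708179-24708233, + strand): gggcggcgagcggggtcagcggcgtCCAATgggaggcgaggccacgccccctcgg

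The 13 genes with E2F-type letters and the 23 measured genes whose window lacked them were both lower at E18.5. Their median differences from E13.5 were -1.18 (from -1.48 to -0.66) and -1.09 (from -2.05 to -0.30). From E13.5 to E15.5 the medians were -0.44 and -0.13, and from E15.5 to E18.5 they were -0.70 and -0.91. These are descriptions of 2 sets that were not compared by a test. CCAAT stood in 55.8% of the replication windows and 37.4% of all windows. The letters TTTGAA or TTCGAA, forms of the cell cycle homology region, stood in 16.3% and 19.2%. A mitosis list of 20 genes, such as Mki67, Cdk1 and Plk1, differed in its letters: of its 18 windows 5.56% held E2F-type letters, 88.9% CCAAT and 77.8% the homology region letters. A match is a description of the letters and not of a bound site.

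**Figure D3:**
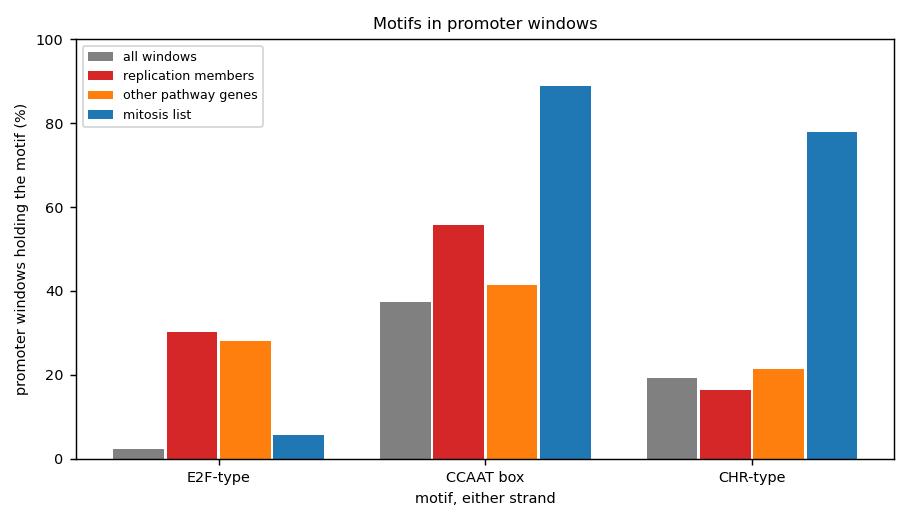
Percentage of RefSeq promoter windows of 300 bases (y axis) that hold E2F-type, CCAAT or cell cycle homology region letters on either strand (x axis), for all 32817 windows, the replication genes, the other pathway genes and the mitosis list. E2F-type letters stand in 30.2% of the replication windows and 2.26% of all windows; the homology region letters stand in 77.8% of the mitosis windows and 16.3% of the replication windows.

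In the origin licensing genes the decline was under way by E15.5: 10 of 12 fell between E13.5 and E15.5, with a median of -0.43, and 0 rose. Of all genes, 27.4% fell and 29.1% rose in that interval. The 6 subunits of the Mcm ring, the motor of the replicative helicase, all fell in that interval (median -0.58) and again to E18.5 (median -0.73). Mcm2 (chr6:88883474-88898780 on mm10, minus strand) was at 27.8 ± 0.540, 25.2 ± 0.515, 14.7 ± 0.429 and 9.35 ± 0.398 FPKM. It had its highest level at E11.5 and fell 2.70-fold from E13.5 to E18.5 (-1.34 ± 0.0431 SE, limma adjusted p = 1.86e-06). Mcm6, the most abundant subunit, was at 61.0 ± 2.57, 85.3 ± 0.589, 55.9 ± 0.681 and 37.1 ± 1.18 FPKM. Both of its E18.5 libraries lay below every earlier library. Mcm3 was at 44.6 ± 0.421, 50.4 ± 2.29, 30.9 ± 0.361 and 21.4 ± 0.577 FPKM and Mcm7, with 23.3% of its 50-base windows found in another gene as well (Gm5487 foremost), at 56.0 ± 0.00804, 68.9 ± 2.33, 50.6 ± 1.10 and 26.7 ± 1.60. Mcm4 was at 40.1 ± 0.256, 42.6 ± 1.39, 28.8 ± 0.611 and 15.53 ± 0.9898 FPKM, and Mcm5 at 43.7 ± 0.220, 55.0 ± 3.25, 40.5 ± 0.637 and 19.1 ± 0.243. Of the 6, only Mcm5 was lower by size in the last interval, by 2.12-fold (-1.05 ± 0.0443 SE, limma adjusted p = 4.29e-06). From E13.5 to E18.5 all 6 were (3.58% of all genes), between 2.30-fold (Mcm6) and 2.88-fold (Mcm5).

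In this scaling Cdt1 and its inhibitor geminin shared a course, while Cdc6 peaked earlier. At the same total all 12 licensing genes, Cdt1 and geminin among them, had a lower value at E15.5 than at E13.5. The median over all genes was -0.41 there. Cdt1, which brings the Mcm ring to ORC, was at 17.5 ± 1.82, 22.2 ± 0.479, 22.4 ± 0.729 and 8.89 ± 0.621 FPKM, and the 2 middle stages overlapped. Geminin (Gmnn), which binds Cdt1 and blocks a further round of licensing, was at 83.5 ± 4.59, 139 ± 2.74, 146 ± 0.809 and 51.2 ± 2.13 FPKM. It rose 1.66-fold from E11.5 to E13.5 (0.73 ± 0.0482 SE, limma adjusted p = 2.04e-05) and its difference from E13.5 to E15.5 did not pass (limma adjusted p = 0.256). In the last interval Gmnn fell 2.84-fold (-1.49 ± 0.0482 SE, limma adjusted p = 1.67e-06) and Cdt1 2.51-fold (-1.24 ± 0.0764 SE, limma adjusted p = 1.85e-05). Cdc6, an ATPase of the loading step, was highest at E13.5, at 8.86 ± 0.0837, 12.1 ± 0.885, 8.86 ± 0.370 and 4.46 ± 0.0887 FPKM. With 1.99-fold it lay just outside the rule of size from E15.5 to E18.5.

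The ORC subunits were highest at E11.5. Orc1 was low throughout, at 3.32 ± 0.113, 2.40 ± 0.233, 1.37 ± 0.183 and 0.887 ± 0.3997 FPKM, and its last 2 stages came close, with 27 and 52 reads in the E18.5 libraries. Orc2 was at 12.7 ± 0.0315, 7.42 ± 0.472, 5.93 ± 0.176 and 5.18 ± 0.418 FPKM; 29.8% of its exon bases overlap Nif3l1. Orc6 kept 61.4% of its highest level at E18.5, the largest share in the group. It was at 55.1 ± 0.440, 53.0 ± 2.88, 44.5 ± 0.887 and 33.8 ± 0.850 FPKM and fell by 0.69 on the log2 scale from E11.5 to E18.5 (limma adjusted p = 1.21e-05). The high erythroid, neural and mesenchymal levels of the E11.5 sample accompany these E11.5 maxima, and their part was not tested.

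**Figure D4:**
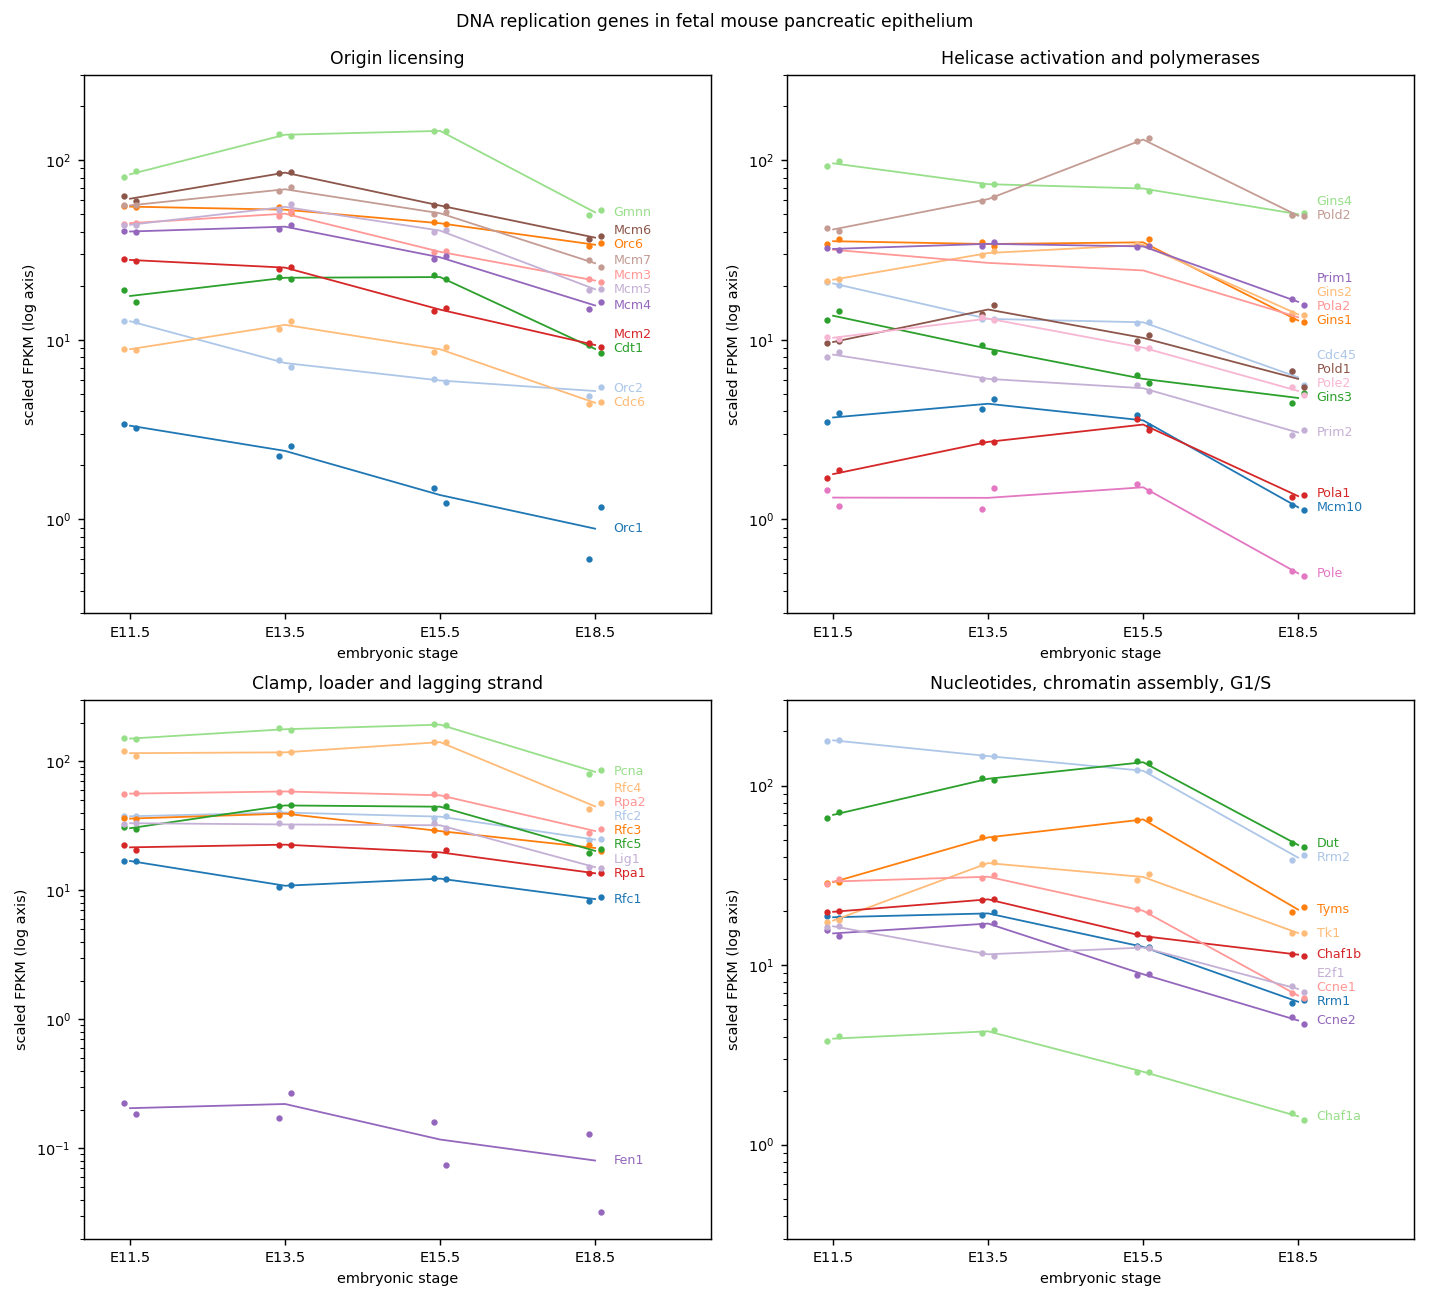
Scaled FPKM (log axis) of the 46 replication genes at the 4 stages (x axis) in 4 panels by role, with lines through the stage averages and points for the 2 recovered libraries (none for Pola2). In this scaling the lines for Gmnn, Pcna, Rfc4, Tyms and Dut peak at E15.5 and drop to E18.5 (at the same total they are lower at E15.5 than at E13.5), while Mcm2 to Mcm7 are already lower at E15.5 than at E13.5; Fen1 lies below 1 FPKM throughout.

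In the last interval 6 of 6 helicase activation genes fell (30.8% of all genes), with a median of -0.99. Between E13.5 and E15.5 Gins3 and Mcm10 fell, Gins2 rose and 3 did not pass. Cdc45, the helicase partner that limits origin firing, was at 20.6 ± 0.403, 13.1 ± 0.0664, 12.5 ± 0.163 and 6.18 ± 0.783 FPKM and had the largest fall of the group from E11.5 to E18.5, 3.33-fold (-1.59 ± 0.0716 SE, limma adjusted p = 2.24e-06). Mcm10, needed to start unwinding, was at 3.69 ± 0.285, 4.40 ± 0.379, 3.56 ± 0.335 and 1.17 ± 0.0536 FPKM and lost 3.05-fold in the last interval (-1.07 ± 0.0845 SE, limma adjusted p = 5.58e-05), although its level kept it outside the rule of size.

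The 4 GINS subunits, which form a complex with 1 copy of each, did not run in parallel. Gins1 was at 35.4 ± 1.75, 34.1 ± 1.06, 34.9 ± 1.91 and 12.8 ± 0.431 FPKM. It passed in neither early interval and fell 2.73-fold in the last (-1.38 ± 0.0555 SE, limma adjusted p = 3.58e-06). Gins2 was at 21.6 ± 0.398, 30.4 ± 0.864, 33.8 ± 0.736 and 13.8 ± 0.264 FPKM. Its rise from E13.5 to E15.5 (limma adjusted p = 0.0155) was lost without library 1 of E13.5 or of E15.5 and turned to -0.46 when stages were set to the same total. Of its exon bases, 67.3% overlap Gse1. Gins3 declined from the start, at 13.6 ± 1.08, 8.91 ± 0.584, 6.06 ± 0.427 and 4.74 ± 0.403 FPKM, and Gins4, the most abundant, was at 96.1 ± 4.24, 73.5 ± 0.805, 69.5 ± 3.36 and 50.04 ± 0.861 FPKM with the smallest fall of the 4 in the interval from E13.5 to E18.5 (-0.55 ± 0.0467 SE, limma adjusted p = 9.91e-05).

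Among the polymerase genes, Pold2 was the member past the rule of size in the interval from E13.5 to E15.5. It encodes the accessory subunit of DNA polymerase delta (chr11:5872180-5878292 on mm10, minus strand), beside the catalytic Pold1. Pold2 was at 41.1 ± 1.23, 60.7 ± 2.36, 130.4 ± 4.23 and 49.0 ± 0.246 FPKM. It rose 2.15-fold from E13.5 to E15.5 (1.09 ± 0.0423 SE, limma adjusted p = 8.63e-06) and fell 2.66-fold from E15.5 to E18.5 (-1.39 ± 0.0423 SE, limma adjusted p = 1.4e-06); both E15.5 libraries lay above all others. Set to the same total, the earlier rise was 0.47, and it was 0.77 at the same total without markers, so that it kept its direction but no longer passed the rule of size. Its E18.5 level was above E11.5 by 0.25 (0.25 ± 0.0423 SE, limma adjusted p = 0.0016), a difference that became -0.33 when stages were set to the same total. The catalytic subunit Pold1 peaked earlier, at 9.72 ± 0.0977, 14.7 ± 1.13, 10.2 ± 0.640 and 6.06 ± 0.866 FPKM, and fell in both intervals after E13.5.

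Polymerase alpha and its primase start each new strand with a short primer. Pola1, the catalytic subunit, was scarce, at 1.79 ± 0.127, 2.70 ± 0.00927, 3.37 ± 0.325 and 1.35 ± 0.0295 FPKM. Its difference of 0.24 from E13.5 to E15.5 (limma adjusted p = 0.0294) was lost without either E13.5 library or library 1 of E15.5, and was -0.23 when stages were set to the same total. From E11.5 to E18.5 it fell least of the members that fell, apart from Tk1 (-0.25 ± 0.0724 SE, limma adjusted p = 0.0188), a call lost without library 2 of E11.5 or either E18.5 library. Pola2 was at 31.7, 26.8, 24.3 and 13.3 FPKM, lower at each stage than at the stage before. The primase subunits Prim1 and Prim2 were at 32.1 ± 0.545, 34.2 ± 1.27, 33.1 ± 0.197 and 16.3 ± 0.917 FPKM and at 8.27 ± 0.335, 6.06 ± 0.0198, 5.37 ± 0.277 and 3.04 ± 0.131 FPKM. Prim1 passed in neither early interval and then fell 2.04-fold (-0.98 ± 0.0472 SE, limma adjusted p = 6.83e-06).

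Polymerase epsilon copies the leading strand. Its catalytic subunit Pole was near 1 FPKM, at 1.32 ± 0.184, 1.32 ± 0.252, 1.51 ± 0.0893 and 0.5002 ± 0.0231 FPKM, with both E18.5 libraries below the earlier ones. The smaller subunit Pole2 was at 10.3 ± 0.141, 13.1 ± 0.407, 9.04 ± 0.0191 and 5.19 ± 0.385 FPKM and fell from E13.5 onward.

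The sliding clamp Pcna (chr2:132249162-132253314 on mm10, minus strand), the ring that holds polymerases on DNA, was the most abundant replication gene from E13.5 onward. It was at 150.2 ± 2.15, 177 ± 4.59, 193 ± 3.19 and 82.9 ± 4.09 FPKM. Its value at E15.5 was above that at E13.5 without passing (limma adjusted p = 0.0544), while all 6 Mcm ring genes fell in that interval. It then fell 2.33-fold (-1.21 ± 0.0429 SE, limma adjusted p = 2.33e-06), and 19.1% of its 50-base windows are shared, mainly with the pseudogene Pcna-ps2.

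The clamp loader, replication factor C, has 1 large and 4 small subunits, and these moved apart. Rfc4 (chr16:23113943-23127737 on mm10, minus strand) was at 116 ± 7.62, 118 ± 0.810, 141 ± 0.920 and 44.8 ± 3.39 FPKM and fell 3.15-fold from E15.5 to E18.5 (-1.64 ± 0.0625 SE, limma adjusted p = 2.97e-06), beside 3.18-fold for Tyms. Its earlier rise (limma adjusted p = 0.0119) was lost without library 1 of E13.5 or library 2 of E15.5 and became -0.36 when stages were set to the same total. Rfc5 was at 30.3 ± 0.782, 45.5 ± 0.293, 44.5 ± 1.005 and 20.2 ± 1.155 FPKM and rose 1.501-fold from E11.5 to E13.5 (0.57 ± 0.0457 SE, limma adjusted p = 4.88e-05). Rfc1, the large subunit, was at 16.9 ± 0.0613, 10.9 ± 0.238, 12.3 ± 0.263 and 8.56 ± 0.432 FPKM, highest at E11.5, and its rise from E13.5 to E15.5 (0.17 ± 0.0445 SE, limma adjusted p = 0.0176) became -0.41 at the same total. Rfc2 and Rfc3 were at 37.5 ± 0.0121, 40.1 ± 0.129, 37.3 ± 0.974 and 24.8 ± 0.213 FPKM and at 36.0 ± 0.210, 39.4 ± 0.936, 28.8 ± 0.919 and 21.3 ± 1.43 FPKM, and both had among the smaller falls from E15.5 to E18.5, 0.57 and 0.42 on the log2 scale. The rise of Rfc2 from E11.5 to E13.5 (0.09) became -0.04 at the same total. Overlapping exons of other genes cover 10.7% to 15.1% of Rfc2, Rfc4 and Rfc5.

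The genes Rpa1, Rpa2 and Lig1, for covering single strands and sealing the lagging strand, all fell after E15.5. Rpa1 and Rpa2, subunits of the single-strand binding protein, were at 21.6 ± 1.57, 22.6 ± 0.0527, 19.7 ± 1.38 and 13.6 ± 0.0350 FPKM and at 56.2 ± 1.03, 58.4 ± 1.06, 54.6 ± 1.22 and 28.9 ± 1.13 FPKM. Lig1, the ligase that joins Okazaki fragments, was at 33.2 ± 0.580, 32.4 ± 1.25, 32.0 ± 1.88 and 15.1 ± 0.131 FPKM. In this scaling Rpa2 and Lig1 passed in neither early interval, and Lig1 fell 2.11-fold in the last (-1.03 ± 0.0492 SE, limma adjusted p = 6.72e-06). At the same total the medians of the 9 clamp, loader and lagging-strand genes were -0.64 from E13.5 to E15.5 and -0.72 from E15.5 to E18.5. In the scaling used here they were -0.03 and -0.90. Over all genes the medians were -0.41 and 0.15 at the same total, and 0.00 and 0.04 in the scaling used here.

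Nucleotide supply genes had the steepest last interval of the role groups, with a median of -1.51. In it 5 of 5 fell (30.8% of all genes) and all 5 were lower by size (6.26% of all genes). Rrm2, the regulated small subunit of ribonucleotide reductase (chr12:24708241-24714146 on mm10, plus strand), was the most abundant member at E11.5, at 178 ± 0.539, 146 ± 0.149, 121 ± 1.26 and 39.7 ± 1.73 FPKM. It fell in every interval and had the largest fall of the 45 genes from E11.5 to E18.5, 4.50-fold (-2.14 ± 0.0362 SE, limma adjusted p = 4.65e-08). The large subunit Rrm1 was at 18.46 ± 0.309, 19.4 ± 0.396, 12.6 ± 0.139 and 6.25 ± 0.181 FPKM and fell 3.10-fold from E13.5 to E18.5 (-1.49 ± 0.0380 SE, limma adjusted p = 8.61e-07).

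The genes of thymidine supply were higher at E13.5 than at E11.5. Thymidylate synthase (Tyms), which makes the thymine nucleotide, was at 29.0 ± 0.304, 51.4 ± 0.659, 64.7 ± 0.212 and 20.4 ± 0.811 FPKM. The dUTPase gene Dut, which keeps uracil out of DNA, was at 68.6 ± 3.59, 109 ± 2.52, 135 ± 2.06 and 46.6 ± 1.66 FPKM. Thymidine kinase (Tk1), the salvage enzyme, was at 17.7 ± 0.303, 36.97 ± 0.812, 31.0 ± 1.70 and 15.1 ± 0.0286 FPKM. All 3 rose from E11.5 to E13.5, Tk1 by 2.09-fold (1.02 ± 0.0445 SE, limma adjusted p = 3.05e-06), Tyms by 1.77-fold and Dut by 1.59-fold, and these rises kept their direction at the same total, where Tk1 no longer passed the rule of size. From E13.5 to E15.5 Tyms and Dut rose and Tk1 fell, but the rises became -0.29 and -0.32 at the same total. The fall to E18.5 was 3.18-fold for Tyms (-1.62 ± 0.0358 SE, limma adjusted p = 6.22e-07) and 2.89-fold for Dut (-1.51 ± 0.0468 SE, limma adjusted p = 1.45e-06). Tk1 was low at E11.5, and its E18.5 level was 1.17-fold below E11.5 (-0.22 ± 0.0445 SE, limma adjusted p = 0.0039), the smallest fall of the members that fell.

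Chromatin assembly factor 1 places histones on new DNA. Its subunits Chaf1a and Chaf1b were at 3.89 ± 0.188, 4.28 ± 0.107, 2.55 ± 0.00601 and 1.44 ± 0.0950 FPKM and at 19.8 ± 0.155, 23.2 ± 0.149, 14.5 ± 0.602 and 11.4 ± 0.186 FPKM, and both fell in the last 2 intervals; 52.5% of the exon bases of Chaf1a overlap Ubxn6. The cyclin E genes, which drive entry into S phase, fell more steeply from E13.5 to E18.5 than the median member. Ccne1 (chr7:38097984-38107534 on mm10, minus strand) was at 29.2 ± 1.32, 31.0 ± 0.971, 20.1 ± 0.615 and 6.76 ± 0.289 FPKM, a 4.59-fold fall from E13.5 to E18.5 that was the largest of the 45 genes (-2.05 ± 0.0503 SE, limma adjusted p = 7.65e-07). Ccne2 was at 15.01 ± 0.811, 17.0 ± 0.307, 8.89 ± 0.0442 and 4.91 ± 0.2997 FPKM and fell 3.46-fold (-1.61 ± 0.0539 SE, limma adjusted p = 2.13e-06), with the largest fall of all members from E13.5 to E15.5 (-0.87 ± 0.0539 SE, limma adjusted p = 4.54e-05). E2f1, the transcription factor that activates many replication genes, was at 16.4 ± 0.0886, 11.48 ± 0.367, 12.5 ± 0.147 and 7.36 ± 0.448 FPKM, with a smaller fall than either cyclin from E13.5 to E18.5 (-0.58 ± 0.0483 SE, limma adjusted p = 9.02e-05).

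Ratios between members of 1 sample do not depend on how stages are scaled, and they showed that partners changed unequally. They are given with the SD of the 2 libraries and without a test. Mcm6 over Mcm2 was 2.19 ± 0.0498, 3.38 ± 0.0457, 3.80 ± 0.157 and 3.96 ± 0.295, lowest at E11.5. Pcna over Mcm2 was 5.39 ± 0.0276, 7.04 ± 0.326, 13.1 ± 0.598 and 8.86 ± 0.815, with both E15.5 libraries above all others. Pold2 over Pold1 was 4.24 ± 0.169, 4.12 ± 0.157, 12.7 ± 0.383 and 8.10 ± 1.13, so the difference between E13.5 and E15.5 was many times the SD. Tyms over Rrm1 was 1.57 ± 0.0427, 2.65 ± 0.0880, 5.12 ± 0.0731 and 3.26 ± 0.0353, and Rrm2 over Rrm1 was 9.67 ± 0.191, 7.52 ± 0.161, 9.56 ± 0.00513 and 6.35 ± 0.0922. Rfc4 over Rfc1 was 6.85 ± 0.476, 10.8 ± 0.162, 11.4 ± 0.318 and 5.23 ± 0.132, lowest at E18.5. Gins2 over Gins3 was 1.59 ± 0.0966, 3.41 ± 0.321, 5.57 ± 0.272 and 2.92 ± 0.305, highest at E15.5. Geminin over Cdt1 stayed within a narrower range, 4.76 ± 0.760, 6.26 ± 0.0116, 6.52 ± 0.249 and 5.76 ± 0.644, and the E11.5 and E18.5 libraries overlapped. Ccne1 over Ccne2 was 1.95 ± 0.194, 1.82 ± 0.0241, 2.26 ± 0.0804 and 1.38 ± 0.0252, lowest at E18.5.

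**Figure D5:**
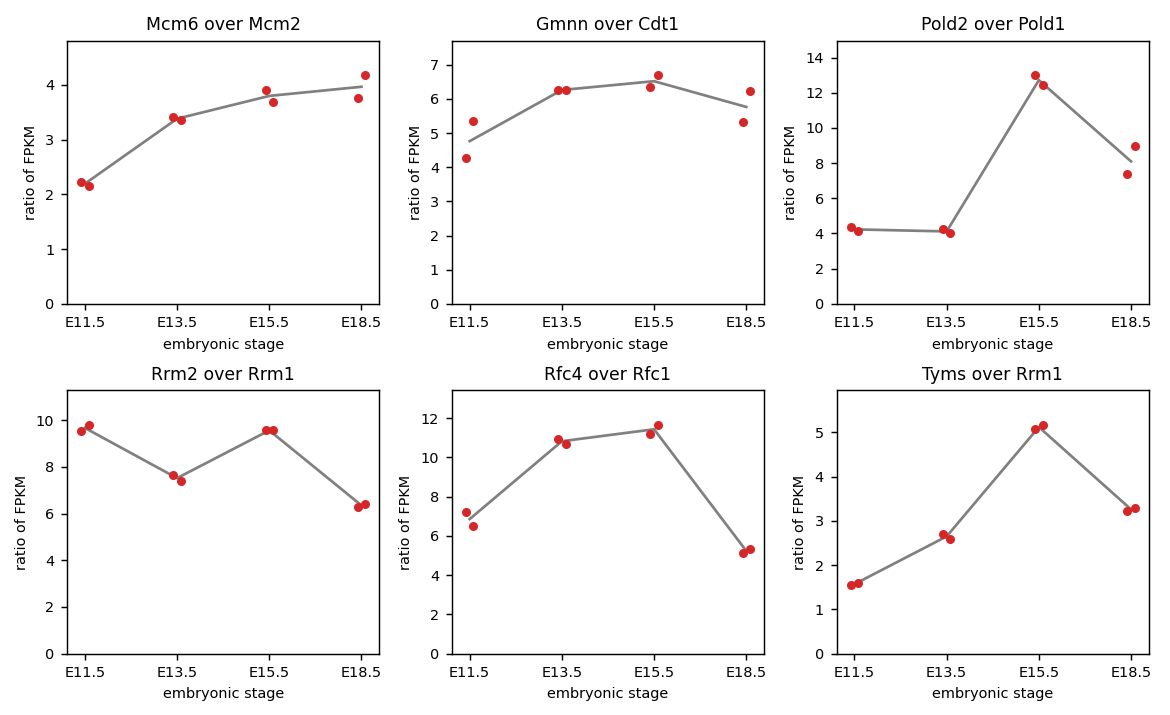
Ratio of FPKM of 6 pairs of replication genes (y axes, from 0) at the 4 stages (x axis), with points for the 2 recovered libraries and lines through the ratios of the stage averages. Pold2 over Pold1 jumps from 4.12 at E13.5 to 12.7 at E15.5, Tyms over Rrm1 peaks at 5.12 at E15.5, and Rrm2 over Rrm1 is lowest at E18.5.

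The rest of the pathway was followed in 74 further genes, all at 1 FPKM or more in some stage. Between E13.5 and E18.5, 24 were lower and 1 higher by size, where 3.58% of all genes were lower and 6.11% higher. Of the 68 that entered the limma fit 59 fell and 5 rose, where 25% of all genes fell and 36.1% rose. The median was -0.82. From E15.5 to E18.5 54 of 68 fell and 6 rose (30.8% and 38.2% of all genes), with a median of -0.76. Among licensing and firing genes, Cdc7 and Dbf4, the kinase that fires origins and its activator, were at 15.7 ± 0.429, 9.17 ± 0.303, 6.84 ± 0.122 and 3.35 ± 0.0771 FPKM and at 9.12 ± 0.210, 6.33 ± 0.328, 7.43 ± 0.687 and 2.57 ± 0.0338 FPKM. In this group 12 of 15 fell from E13.5 to E18.5. Among fork genes 16 of 16 fell by limma, for example the checkpoint mediator Clspn, at 5.04 ± 0.0409, 3.40 ± 0.277, 3.83 ± 0.119 and 1.147 ± 0.150 FPKM, and the polymerase epsilon subunit Pole3, at 87.7 ± 1.58, 51.2 ± 2.66, 44.1 ± 1.95 and 32.1 ± 0.706 FPKM. Of the chromatin genes 11 of 11 fell, among them the histone chaperone Nasp, at 47.8 ± 1.14, 30.9 ± 0.946, 27.8 ± 1.496 and 13.3 ± 0.0734 FPKM.

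A few genes of the pathway went the other way. Pold4, the smallest subunit of polymerase delta, was at 12.6, 15.03, 22.5 and 40.5 FPKM, higher by size at E18.5 than at E13.5 and E11.5 while Pold1 and Pold2 fell from E15.5 to E18.5. Its average could not be split, so it has no test, and 24.6% of its exon bases overlap an unnamed gene. Cdkn1a, the inhibitor p21 that binds cyclin-dependent kinases and Pcna, was at 22.2 ± 1.66, 88.2 ± 5.59, 97.6 and 116 FPKM, higher by size at E18.5 than at E11.5 (11.2% of all genes were). Cdkn1a was already higher by size at E13.5 than at E11.5, and it did not pass the rule from E13.5 to E18.5. Of the nucleotide genes, Cmpk1 and Rrm2b rose from E13.5 to E18.5. These rises depend on the scaling: 2 of the 10 nucleotide genes had a higher value at E18.5 here, and 1 at the same total. Rrm2b, the small reductase subunit that is used outside S phase, was at 0.785 ± 0.0638, 0.9902 ± 0.0478, 0.918 ± 0.0481 and 1.40 ± 0.222 FPKM, a small change in level beside the fall of Rrm2. In the G1/S group Rb1, Rbl2 and Cdkn1b rose in the same comparison while 13 of 17 fell (25% of all genes). Among those that fell was the ubiquitin ligase subunit Skp2, at 8.80 ± 0.290, 8.76 ± 0.0630, 6.24 ± 0.218 and 1.83 ± 0.0551 FPKM.

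The genes of the mitosis list act after S phase, and most of them fell in the last interval too. From E15.5 to E18.5 17 of 18 fitted genes fell (30.8% of all genes) and 16 of 20 were lower by size (6.26% of all genes). The median was -1.20, against -0.85 for the replication genes. From E13.5 to E15.5, 7 of 18 mitosis genes rose and 6 fell, where 7 of 44 replication genes rose and 24 fell. Of all genes, 29.1% rose and 27.4% fell in that interval. At the same total, 19 of 20 mitosis genes and 44 of 45 replication genes were lower at E15.5, with medians of -0.59 and -0.74. The median over all genes was -0.41 in that setting. Mki67, a marker of cycling cells, was at 13.7 ± 0.224, 8.22 ± 0.0697, 20.7 ± 0.129 and 4.91 ± 0.614 FPKM. In the scaling used here it rose 2.52-fold between E13.5 and E15.5 (1.24 ± 0.0691 SE, limma adjusted p = 3e-05). That was the largest rise of the list in this interval, where the list's median was 0.01 and 1 gene was lower by size (-1.16). At the same total 1 of the 20 genes had a higher value in this interval, and the size of the Mki67 rise in that setting is not given here. The difference between the 2 lists was not tested. Cenpe, a kinetochore motor with the largest fall of the list from E11.5 to E18.5, was at 26.7 ± 0.479, 13.3 ± 0.208, 13.9 ± 0.0726 and 5.68 ± 0.423 FPKM (-2.05 ± 0.0499 SE, limma adjusted p = 1.77e-07).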

How the data were processed

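RNA sequencing of fetal mouse pancreas was deposited as 1 table per stage of mean FPKM per Ensembl gene, averaged by the authors per the file headers. Reads were processed with HISAT2 2.0.5 and mm10, per the submitters' processing notes; the counting tool, its use of strand, the annotation and the number of libraries were not stated (not given in the sources used here). Of 54532 gene IDs, 54409 had a symbol in GENCODE M21.

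Stages were scaled by median-of-ratios factors over 9884 genes that reached 1 FPKM in every stage (0.988, 1.03, 1.03 and 0.962). Measured genes, 14841 in all, reached 1 scaled FPKM in some stage. Differences used log2(FPKM + 1), which understates changes of low genes. The rule of size was a 2-fold difference where the larger value reached 5 FPKM.

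FPKM multiplied by GENCODE exon length was a sum of whole reads of 2 libraries, so an average was separated into libraries where a unique pair of read numbers matched within 1 unit of its last printed place. The share of genes separated was 96.17% to 96.58% by stage; the library numbers are arbitrary. The split was also run on simulated reads of 2 libraries, made only from genes already split at every stage. By that construction it cannot show whether the deposited averages come from 2 libraries or whether the exon lengths are right. The log2 values of 13526 genes split at every stage were fitted with limma 3.58.1 in R 4.3.3 (mean-variance trend, Benjamini-Hochberg adjustment, threshold 0.05). The 1315 other measured genes had no test.

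The members and lists were chosen with earlier results of these data known. All 46 members may be named; of other pathway and mitosis lists, up to 3 with the largest difference between E11.5 and E18.5 and any higher at E18.5 by size. Rrm2b, Cmpk1, Rb1, Rbl2, Cdkn1b and Mki67 were named after their values were seen. Pdx1 was named although it was not among the highest genes of its marker list. Alternatives changed the scaling, pseudocount, fold, filters, limma's trend and the libraries.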

Additional observations from a re-analysis of the deposited data

How the results depend on the processing

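Stages were set to the same FPKM total, or to the same total without acinar, endocrine and erythroid markers. Members past the rule of size became 0 and 0 at E13.5 against E11.5 (1 as reported), 16 and 4 at E15.5 against E13.5 (1), 11 and 11 at E18.5 against E15.5 (18), and 39 and 31 at E18.5 against E11.5 (18). Their medians became -0.041 and -0.047, turning the sign of 0.09; -0.74 and -0.50 (-0.19); -0.68 and -0.70 (-0.85); -1.54 and -1.24 (-1.11); and -1.50 and -1.23 (-0.94), in the order of the plot of differences. Single genes that turned were Rfc2 at E13.5 against E11.5 (-0.041 and -0.047); at E15.5 against E13.5, Gins2 (-0.46 and -0.17), Pola1 (-0.23 and -0.0029), Rfc1 (-0.41 and -0.13), Rfc4 (-0.36 and -0.061), Dut (-0.32 and -0.018) and Tyms (-0.29, the same total only); and Pold2 at E18.5 against E11.5 (-0.33 and -0.046). These shifts follow from the construction of the settings, since they move all genes of a stage together. Without scaling beyond the deposited FPKM the medians were 0.15 at E13.5 against E11.5, and -0.94, -1.18 and -0.97 at E18.5 against the stages E15.5, E13.5 and E11.5. A 1.5-fold rule gave 10, 8, 31 and 35 members at E13.5 against E11.5, E15.5 against E13.5, E18.5 against E15.5 and E18.5 against E11.5, and a 3-fold rule gave 0, 0, 3 and 4, with 4 at E18.5 against E13.5. Pseudocounts of 0.1 and 5 gave medians of -0.20 and -0.14, -0.92 and -0.55, -1.22 and -0.88, and -0.98 and -0.70 for the last 4 comparisons. Without the filter the medians were -0.17 at E15.5 against E13.5 and -0.93 between E11.5 and E18.5. Over the 35 members that share at most 10% of their sequence with other genes, a setting chosen after seeing the data like the same total in limma, the medians were -1.16 (E18.5 against E13.5) and -0.93 (E18.5 against E11.5). The number of limma calls stayed within 1.5 times in every setting, from 24 to 43 at E15.5 against E13.5. Leaving out 1 library lost these calls: at E13.5 against E11.5 Mcm2, Rfc2 and Ccne2; at E15.5 against E13.5 Orc1, Orc2, Mcm10, Gins2, Pola1, Rfc1, Rfc2, Rfc4 and Rpa1; Gins3 at E18.5 against E15.5; and Pola1 between E11.5 and E18.5. Without the filter on low values, Cdt1, Mcm2 and Ccne2 lost their calls at E13.5 against E11.5. At E15.5 against E13.5 that setting lost Orc1, Orc2, Mcm10, Pola1, Rfc1, Rfc4 and Rpa1, and at E18.5 against E15.5 it lost Gins3. No paired analysis was possible because each stage has 1 sample and the numbers of the recovered libraries are arbitrary.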
